A study of Homo sapiens with 14 samples.

Results

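The SA1Q line was compared with the empty-vector line of the same parental cells. The members were chosen by genotype: the 4 libraries of cells carrying SNAP-ADAR1Q (SA1Q replicates 1 and 2, SA1Q+gRNA replicates 1 and 2) and the 2 libraries of the empty-vector line (ctrl replicates 1 and 2), 6 of the 14 libraries in the series. The series measured poly(A)+ RNA by paired-end sequencing in 293 Flip-In T-REx cells, an embryonic kidney line in which a transgene is placed at a single recombination site. It covers 7 groups of 2 libraries, and its stated purpose was to find off-target RNA editing. The other groups carry SNAP-ADAR2Q without and with a guide RNA (SA2Q and SA2Q+gRNA, together the SA2Q line), SNAP-ADAR1 with a guide RNA (SA1+gRNA) and SNAP-ADAR2 with a guide RNA (SA2+gRNA). All groups share the parental cells, and the ctrl cells carry the vector without an insert. No source used here gives the guide's target, the state of transgene induction or whether a line is 1 clone, so the transgene and the line cannot be told apart in any comparison here. The 2 libraries of a group are labelled as biologically independent experiments on the same line.

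ADAR1, encoded by ADAR, converts adenosine to inosine in double-stranded RNA, and loss of its activity lets cells sense their own RNA as foreign and turn on interferon-stimulated genes. A SNAP-ADAR enzyme joins the deaminase domain of an ADAR to a SNAP-tag, a modified form of the repair protein MGMT that bonds covalently to a guide RNA bearing its substrate. The Q forms carry a glutamate-to-glutamine change in the deaminase domain that raises their activity and also their off-target editing. Only RNA levels are described here, not editing.

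The 6 libraries held 43000000 to 63500000 counts and the other 8 held 47000000 to 130000000. Levels are given as CPM, the counts of a gene per 1000000 of its library after scaling by edgeR's TMM factors, and gene values are listed in the order ctrl replicates 1 and 2, then SA1Q replicates 1 and 2, then SA1Q+gRNA replicates 1 and 2. Both ctrl replicate 1 and SA1Q+gRNA replicate 1 lay far from the remaining 12 libraries: on the first principal component, which held 24.7% of the variance, they scored -39.6 and -43.9 and the others 0.3 to 13.7. The replicates of these groups differed with an SD of 0.496 and 0.479 on the log2 scale, against 0.292 to 0.332 in the other 5 groups. Their replicate differences followed transcript length, with a Spearman coefficient across genes of -0.369 and -0.376, and GC content, with 0.211 in ctrl and 0.536 in SA1Q+gRNA. In SA1+gRNA (-0.426), SA1Q (-0.361) and SA2Q+gRNA (-0.324) replicate differences also followed GC. The second component, with 14% of the variance, placed the 4 libraries of the SA1Q line at 16.8 to 23.1 and the other 10 at -19.0 to -1.7.

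ADAR levels matched the labels. ADAR (chr1:154554534-154580724 on hg19, minus strand) was at 307 and 340 CPM in ctrl and at 1100, 1085, 1324 and 1134 CPM in the SA1Q line. All 4 libraries of the line were above both ctrl libraries, with a log2 change of 1.84 (SE 0.09, edgeR quasi-likelihood adjusted p = 4.2e-09). The counts do not separate transcripts of the native gene from those of the inserted deaminase domain. ADARB1, which encodes ADAR2, stood at 29.3 and 37.2 CPM in ctrl and at 28.6 to 32.4 CPM in the line (log2 -0.10, adjusted p = 0.65), while the SA2Q line held 1086 ± 105 CPM (SD, n = 4). MGMT, the parent of the SNAP-tag, stood at 17.7 and 17.3 CPM in ctrl and at 14.2 to 19.8 CPM in the line (log2 -0.16, adjusted p = 0.56).

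Of 16418 genes tested, 548 differed between the SA1Q line and ctrl (3.34%, edgeR quasi-likelihood test, Benjamini-Hochberg adjusted p under 0.05): 229 rose (1.39%) and 319 fell (1.94%). Most differences were small: the median size among called genes was 0.48 on the log2 scale, and 50 genes passed 2-fold, 17 higher and 33 lower. In 545 of the 548 all 4 libraries of the line lay outside the range of ctrl, as they did for 19.7% of all genes tested. The count depended on single libraries: it was 354 without ctrl replicate 1, 269 without SA1Q replicate 2, 274 without SA1Q+gRNA replicate 2 and 2042 without SA1Q+gRNA replicate 1. Called genes followed base composition, with 50 higher and 21 lower in the 25% of genes lowest in GC and 31 higher and 166 lower in the 25% highest in GC. An offset for length and GC raised the count to 1632 and moved the share of higher calls from 41.8% to 55.1%. Its part in any single gene's result was not tested beyond the alternatives given with the limits.

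**Figure D1:**
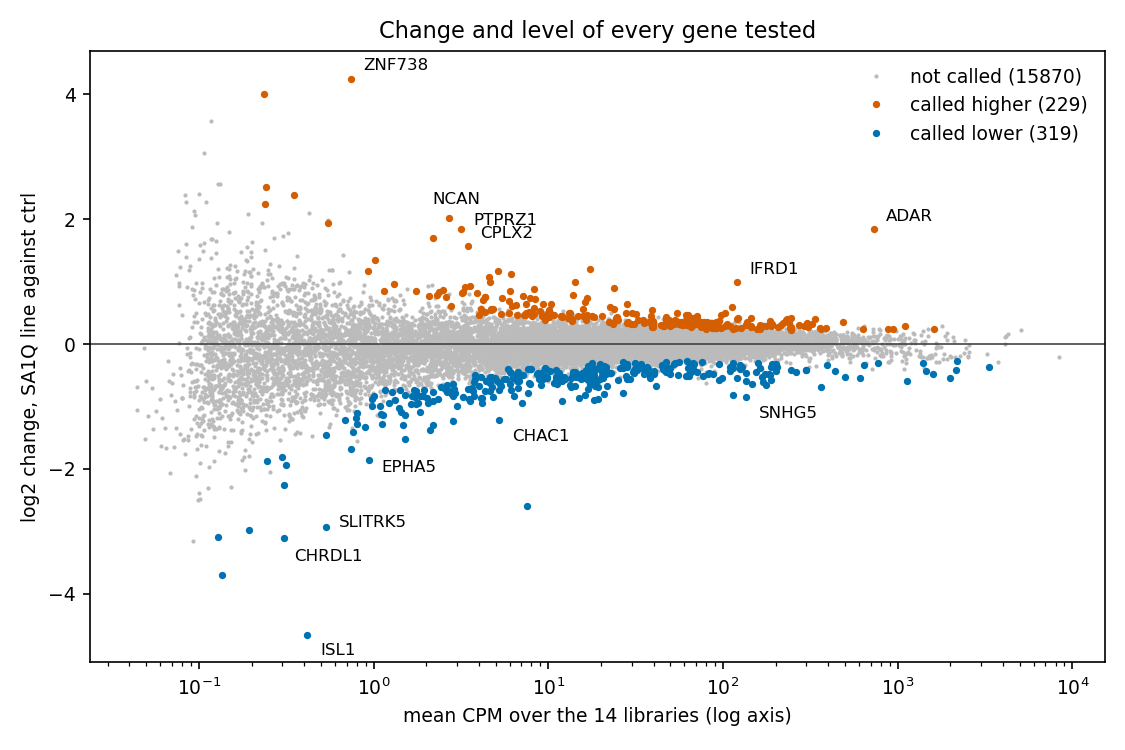
Log2 change of the SA1Q line against ctrl (vertical axis) for each of the 16418 genes tested, against the mean CPM over 14 libraries (horizontal log axis). Orange points are the 229 genes called higher, blue points the 319 called lower and grey points those not called; ADAR stands alone at high level with a log2 change of 1.84, and ISL1 has the lowest value at -4.65.

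The genes with the largest rises included several that neurons and endocrine cells use for regulated secretion. CPLX2 (complexin 2, which clamps and times vesicle fusion, chr5:175298501-175311023) stood at 2.01 and 2.01 CPM in ctrl and at 5.39, 6.33, 5.45 and 6.59 CPM in the line. The ctrl libraries were equal and all 4 libraries of the line lay above them (log2 1.57, SE 0.17, adjusted p = 0.00014). UNC13A, a priming factor for synaptic vesicles, stood at 3.87 and 3.05 CPM in ctrl and at 6.23, 8.13, 7.00 and 7.69 CPM in the line (log2 1.08, SE 0.15, adjusted p = 0.0012). SCG3, a secretory granule protein that binds chromogranin A, stood at 3.89 and 3.18 CPM in ctrl and at 6.94, 5.81, 7.28 and 7.85 CPM in the line (log2 0.99, SE 0.17, adjusted p = 0.0045). These 3 genes were named for not overlapping between the groups, so their separation is by choice. Each stayed called without any single library. Of 40 tested members of a list of synaptic vesicle and secretory granule genes, 7 rose and 0 fell (17.5%, against 3.34% of all genes called). The list median was 0.11 against 0.01 over all genes. The other 4 were the granule proteins CHGB (0.85) and CHGA (0.74), the vesicle membrane protein SYP (0.50, overlapping SYP-AS1) and the calcium sensor SYT7 (0.48). Leaving out either ctrl library brought the count to 4, and CHGB had adjusted p = 0.06 without the first. CHGA and SYT7 lost the call without either ctrl library (adjusted p = 0.194 at most for each) or SA1Q+gRNA replicate 2, SYT7 also without SA1Q replicate 2, and SYP without ctrl replicate 2 (adjusted p = 0.093). RAB26, a small GTPase of secretory granules and synaptic vesicles that is not on the list, fell: it stood at 3.10 and 3.67 CPM in ctrl and at 1.84, 1.18, 1.29 and 1.43 CPM in the line (log2 -1.23, SE 0.19, adjusted p = 0.0022).

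Other large rises were in neural matrix, channel and receptor genes at low levels. Of these NCAN was also called against the SA2Q line, while PTPRZ1, GRIK3, RYR2, TRIM67 and SEZ6L were not. PTPRZ1, a receptor phosphatase that is also a chondroitin sulfate proteoglycan of glia, stood at 1.0 and 1.5 CPM in ctrl and at 5.61, 5.75, 2.47 and 4.22 CPM in the line (log2 1.84, SE 0.29, adjusted p = 0.0027). The lowest library of the line was SA1Q+gRNA replicate 1, and the gene was named for not overlapping ctrl. NCAN, a secreted proteoglycan of the neural matrix, rose from 0.334 and 0.473 CPM to 1.22, 1.22, 3.04 and 1.36 CPM (log2 2.02, SE 0.42, adjusted p = 0.013). Its highest value was in SA1Q+gRNA replicate 1, and it was not called without ctrl replicate 1 (log2 1.81, adjusted p = 0.094) or ctrl replicate 2 (adjusted p = 0.055). BCAN, of the same proteoglycan family, fell (log2 -0.56, adjusted p = 0.027) but was not called without ctrl replicate 1 (adjusted p = 0.113), ctrl replicate 2 (adjusted p = 0.068) or SA1Q+gRNA replicate 2 (adjusted p = 0.05). GRIK3, a kainate receptor subunit, rose from 3.63 and 3.48 CPM to 7.09, 8.67, 5.97 and 9.07 CPM (log2 1.12, adjusted p = 0.0017). It was the only 1 of 17 ionotropic glutamate receptor genes tested that was called. RYR2, the calcium release channel of heart and brain, rose from 7.12 and 6.91 CPM to 12, 14, 11.6 and 18.2 CPM (log2 1.0, adjusted p = 0.0021). TRIM67 and SEZ6L, genes expressed mainly in brain, had log2 changes of 1.34 and 1.17, and both lost the call without ctrl replicate 1 (adjusted p = 0.145 and 0.068). SEZ6L was also not called without ctrl replicate 2 (adjusted p = 0.072), nor TRIM67 without SA1Q replicate 2 (adjusted p = 0.057) or SA1Q+gRNA replicate 2 (adjusted p = 0.064).

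IFRD1, an abundant transcript, also rose. IFRD1 (interferon-related developmental regulator 1, a transcriptional coregulator, chr7:112090483-112117258) stood at 93.0 and 81.5 CPM in ctrl and at 178, 177, 163 and 175 CPM in the line. The 4 libraries spanned a narrow range (log2 0.99, SE 0.08, adjusted p = 2.8e-06), and the gene was named for not overlapping ctrl. PHF21B, a PHD finger protein of neural tissue, stood at 10.8 and 11.5 CPM in ctrl and at 20.5, 28.8, 26.7 and 27.1 CPM in the line (log2 1.21, SE 0.13, adjusted p = 0.00014). MFAP2, a component of elastic microfibrils, rose from 1.70 and 2.48 CPM to 4.02 to 6.33 CPM (log2 1.16, adjusted p = 0.0033). Unlike IFRD1 and PHF21B, MFAP2 was not called against the SA2Q line.

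A small group of zinc finger genes on chromosome 19p12 went from near 0 to a low level. KRAB zinc finger genes of this cluster encode proteins that bind and silence transposable elements. ZNF738 (chr19:21541735-21571384) had 4 and 1 counts in ctrl and 64, 27, 44 and 79 in the line, or 0.0955 and 0.0189 CPM against 1.17, 0.579, 1.13 and 1.3 CPM (log2 4.25, SE 0.59, adjusted p = 0.00092). ZNF257 (chr19:22235266-22273903) stood at 0.788 and 0.644 CPM in ctrl and at 2.79, 2.4, 1.77 and 2.19 CPM in the line (log2 1.69, SE 0.21, adjusted p = 0.0004). Of 28 tested members, 4 rose and 0 fell (14.3%, against 3.34% of all genes called). The other 2 were ZNF730 (log2 2.24) and ZNF90 (log2 2.51), while the list median was 0.04. ZNF730 and ZNF90 were under 0.4 CPM in every library of the line, and both lost the call without either ctrl library, SA1Q replicate 2 or SA1Q+gRNA replicate 2. The members are close in sequence, so the authors' counting could divide reads among them. Against the SA2Q line 0 of the 28 were called: ZNF257 stood at 2.89 CPM there (log2 difference -0.33, adjusted p = 0.24).

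Among genes named for reaching 1 CPM in a group without overlap, the falls were led by ISL1, CHRDL1 and SLITRK5. ISL1 (a LIM-homeodomain factor of motor neuron, heart and pancreas development, chr5:50678958-50690563) had 85 and 111 counts in ctrl and 5, 1, 6 and 4 in the line, or 2.03 and 2.10 CPM against 0.0913, 0.0215, 0.154 and 0.0657 CPM (log2 -4.65, SE 0.44, adjusted p = 3.6e-05). CHRDL1 (a secreted BMP antagonist, chrX:109917084-110039286) stood at 1.34 and 0.947 CPM in ctrl and at 0.146, 0.172, 0.129 and 0.0821 CPM in the line (log2 -3.11, SE 0.38, adjusted p = 0.00032). These genes were low in the other engineered lines as well: the 8 remaining libraries held 0.0974 to 0.293 CPM of ISL1 and 0.102 to 0.314 CPM of CHRDL1. SLITRK5, a synaptic adhesion protein with leucine-rich repeats, stood at 1.65 and 1.31 CPM in ctrl and at 0.219, 0.236, 0.0257 and 0.246 CPM in the line (log2 -2.93, SE 0.39, adjusted p = 0.00066). A related adhesion gene, FLRT2, moved the other way, from 4 and 0 counts in ctrl to 44, 26, 25 and 52 in the line (log2 4.0, adjusted p = 0.0048). Further falls were found in the ephrin receptor EPHA5 (-1.85, overlapping EPHA5-AS1), PTCHD1 (-1.68), the lymphatic growth factor VEGFC (2.60 and 3.10 CPM against 0.712, 0.901, 1.29 and 1.13 CPM, -1.51) and the muscle protein KLHL41 (-1.29). NOS3, the endothelial nitric oxide synthase, fell by 1.38 and overlaps ATG9B on the other strand. MT1F (-1.41), a metallothionein with near-identical copies, and TNFAIP2 (-1.29) lost the call without ctrl replicate 1 (adjusted p = 0.171 and 0.10). SPATA6L (-1.27) lost it without ctrl replicate 2 (adjusted p = 0.061).

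**Figure D2:**
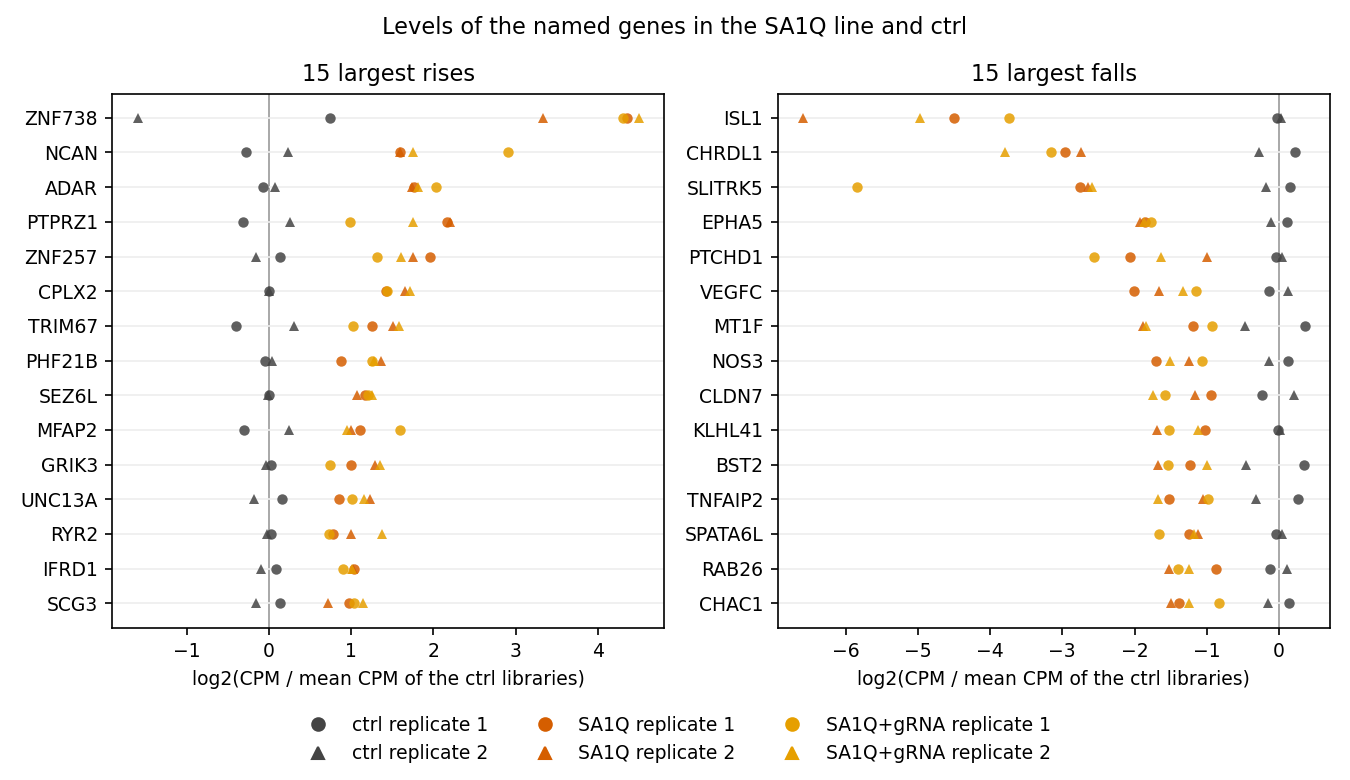
Level of the 15 genes with the largest rises and the 15 with the largest falls, as log2 of CPM over the mean CPM of the ctrl libraries (horizontal axis), 1 point per library; grey is ctrl, red-orange SA1Q and yellow SA1Q+gRNA, with circles for replicate 1 and triangles for replicate 2. The genes were named for not overlapping, so separation is by choice; SLITRK5 shows 1 library, SA1Q+gRNA replicate 1, far below the other 3 of the line.

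Interferon-stimulated genes were lower in the SA1Q line. Of 36 tested members, 0 rose and 9 fell (25%, against 3.34% of all genes called). In 31 of 36 the log2 change was below 0, and the median was -0.24. IFI35, an interferon-induced leucine zipper protein, stood at 6.35 and 4.70 CPM in ctrl and at 3.10, 2.47, 3.22 and 2.68 CPM in the line (log2 -0.94, SE 0.16, adjusted p = 0.0036). IFIT1, which binds viral RNA that lacks a methylated cap, stood at 4.82 and 4.88 CPM in ctrl and at 3.10, 2.04, 2.68 and 2.81 CPM in the line (log2 -0.86, SE 0.16, adjusted p = 0.0071). BST2 (tetherin, which holds budding virus at the membrane) stood at 2.17 and 1.25 CPM in ctrl and at 0.731, 0.536, 0.592 and 0.854 CPM in the line (log2 -1.29, SE 0.25, adjusted p = 0.0077). None of these 3 overlapped, as for 545 of the 548 called genes and 19.7% of all genes tested. The ctrl libraries of BST2 and IFI35 differed more from each other than the 4 libraries of the line did. OAS3, a sensor that makes the activator of RNase L, fell by 0.63 (adjusted p = 0.016), and the other 5 called members (IFITM1, LGALS3BP, SAMD9, ISG20, IFI44L) ranged from -3.09 for IFI44L to -0.41 for LGALS3BP. Leaving out ctrl replicate 1 or SA1Q+gRNA replicate 2 brought the count to 4. IFIT1 kept its call without any single library, while IFI35 and BST2 lost it without ctrl replicate 1 (adjusted p = 0.056 and 0.123), OAS3 without ctrl replicate 2 (adjusted p = 0.261) and BST2 without both libraries that stood apart (adjusted p = 0.093). The other 5 each lost it without SA1Q+gRNA replicate 2 and at least 1 ctrl library, with adjusted p up to 0.325 for ISG20. ISG15, a ubiquitin-like modifier, was not called (6.07 and 5.26 CPM in ctrl, 4.89 to 5.94 CPM in the line).

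Of 18 nucleic acid sensors and adaptors, 0 rose and 2 fell (11.1%, against 3.34% of all genes called), with a median of -0.20. STING1, the adaptor of DNA sensing, stood at 25.8 and 27.3 CPM in ctrl and at 18.1 to 22.8 CPM in the line (log2 -0.38, adjusted p = 0.021), and lost the call without ctrl replicate 1 (adjusted p = 0.053), ctrl replicate 2 (adjusted p = 0.102) or SA1Q replicate 2 (adjusted p = 0.058). IFI16, a DNA sensor under 1 CPM in all 6 libraries (log2 -1.94, adjusted p = 0.039), lost it when any of 5 of the 6 libraries was left out, the exception being SA1Q+gRNA replicate 1. The RNA sensors IFIH1 (4.82 and 5.13 CPM in ctrl, 3.88 to 4.25 CPM in the line) and RIGI (7.64 and 5.87 CPM in ctrl, 4.96 to 6.72 CPM in the line) were not called.

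Promoters of the interferon-stimulated genes are shown because the interferon-stimulated response element is the site through which the family is induced. Each stretch is RefSeq sequence (GRCh38.p14) on the gene's strand, and capitals mark GAAA, any 2 bases and GAAA, or the reverse complement of this. The IFIT1 stretch is chr10:89392482-89392554 on the plus strand and the BST2 stretch chr19:17405720-17405785 on the minus strand.
IFIT1: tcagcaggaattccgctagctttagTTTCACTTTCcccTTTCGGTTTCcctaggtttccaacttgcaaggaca
BST2: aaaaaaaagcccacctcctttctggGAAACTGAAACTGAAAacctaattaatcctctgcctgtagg
In windows of 300 bases around the start (250 before and 50 after, both strands searched), this motif was found in 21 of 29 interferon-stimulated genes with an entry (72.4%) and in 2.77% of the 12870 tested genes with one. It was found in 8 of the 9 members that fell. Of the 251 promoters of all genes called lower 15 held it (5.98%), and 8 of these 15 are the members just counted. It was found in 1 of 165 promoters of genes called higher (0.606%). A match is a string of letters and not a measured binding site.

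Genes of the amino acid response governed by ATF4 were also lower. ATF4 is the transcription factor made when the initiation factor eIF2 is phosphorylated, and it turns on amino acid synthesis, amino acid import and CHAC1. Of 41 tested members, 1 rose and 10 fell (26.8%, against 3.34% of all genes called), 33 of 41 were below 0, and the median was -0.22. CHAC1 (a glutathione-degrading enzyme, chr15:41245636-41248717 on hg19) stood at 7.86 and 6.44 CPM in ctrl and at 2.74, 2.53, 4.01 and 3.02 CPM in the line (log2 -1.22, SE 0.16, adjusted p = 0.0006). SLC7A11, the cystine importer, stood at 21.4 and 23.8 CPM in ctrl and at 12, 12.2, 10.9 and 14 CPM in the line (log2 -0.88, SE 0.10, adjusted p = 0.00015; it overlaps SLC7A11-AS1). The gap between groups was wider than the spread within either for both genes, and both stayed called without any single library. The glycine transporter SLC6A9 fell by 0.92 (14.1 and 15.4 CPM against 6.74, 6.95, 9.83 and 7.80 CPM, overlapping CCDC24), and asparagine synthetase ASNS by 0.48 (186 and 172 CPM against 144, 122, 132 and 116 CPM). The serine pathway enzymes PHGDH (-0.44), PSPH (-0.32) and SHMT2 (-0.34), cystathionine synthase CBS (-0.39), the secreted hormone STC2 (-0.52) and the amino acid exchanger SLC7A5 (-0.57) fell too; SLC7A5 was not called without ctrl replicate 1 (adjusted p = 0.066). PSPH lost the call without ctrl replicate 1 (adjusted p = 0.34), SA1Q replicate 2 or SA1Q+gRNA replicate 2, SHMT2 without ctrl replicate 1 (adjusted p = 0.052), and PHGDH and CBS without ctrl replicate 2 (adjusted p = 0.074 and 0.057). The member that rose was CEBPG (0.27, adjusted p = 0.027), a dimer partner of ATF4, and it lost the call when any of 5 of the 6 libraries was left out, the exception being SA1Q+gRNA replicate 1. ATF4 itself stood at 890 and 708 CPM in ctrl and at 672, 672, 811 and 685 CPM in the line (log2 -0.17, adjusted p = 0.33), and DDIT3 (log2 -0.03, adjusted p = 0.94) and TRIB3 (log2 -0.24, adjusted p = 0.12) were not called. The list's count was 7 without ctrl replicate 1, with 0 higher, and 21 without SA1Q+gRNA replicate 1, with 20 lower.

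The C/EBP-ATF response element is the composite site at which ATF4 dimers bind, shown for the called members that held it. Capitals mark TGATGNAA or its reverse complement in RefSeq sequence (GRCh38.p14). The CHAC1 stretch is chr15:40953221-40953329 on the plus strand and the ASNS stretch chr7:97872409-97872536 on the minus strand.
CHAC1: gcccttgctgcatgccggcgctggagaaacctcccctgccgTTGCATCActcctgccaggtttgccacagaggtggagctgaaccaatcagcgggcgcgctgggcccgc
ASNS: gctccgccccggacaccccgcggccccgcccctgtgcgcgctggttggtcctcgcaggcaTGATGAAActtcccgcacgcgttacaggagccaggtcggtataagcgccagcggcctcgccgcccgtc
The motif was found in 6 of 31 members of the list with an entry (19.4%) and in 1.71% of tested genes. It was found in 2 of the 7 members called lower with an entry, CHAC1 and ASNS. With these 2 included it was found in 7 of 251 promoters of all genes called lower (2.79%).

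Other stress lists held fewer called members. The share was 10% of aminoacyl-tRNA synthetases, 10.7% of the NRF2 and metal response and 11.8% of heat shock and chaperone genes, against 3.34% of all genes. Of 17 heat shock and chaperone genes 1 rose (DNAJA1) and 1 fell (HSPB1), and both lost the call without SA1Q replicate 2. Of 24 genes of the unfolded protein response 0 were called against ctrl, and the chaperone gene HSPA5 stood at 446 and 450 CPM in ctrl and at 399 to 417 CPM in the line. Of 20 cytosolic aminoacyl-tRNA synthetases 2 fell, QARS1 (-0.44) and AARS1 (-0.33), and AARS1 lost the call without ctrl replicate 2 (adjusted p = 0.305), either SA1Q library or SA1Q+gRNA replicate 2. Of 28 genes of the NRF2 and metal response 26 were below 0, with a median of -0.20 (-0.07 without ctrl replicate 1), and 3 fell, SLC7A11, MT1F and OSGIN1 (-0.76, not called without ctrl replicate 1, adjusted p = 0.083). That list had 9 lower without SA1Q+gRNA replicate 1 and 9 with the offset. Of 26 p53 targets 0 were called, and 3 rose and 3 fell without SA1Q+gRNA replicate 1. Without that library 3 genes of the unfolded protein response fell.

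Some transcripts of the translation machinery fell. Of 78 cytosolic ribosomal protein genes 7 fell and 0 rose (8.97%, against 3.34% of all genes called), 72 of 78 were below 0 and the median was -0.17. RPL3 stood at 2447 and 2043 CPM in ctrl and at 1394, 1508, 1734 and 1506 CPM in the line (log2 -0.55, SE 0.08, adjusted p = 0.0012). RPS29 stood at 210 and 177 CPM in ctrl and at 136, 132, 142 and 136 CPM in the line (log2 -0.50, SE 0.07, adjusted p = 0.0011). In both genes ctrl replicate 1 was the highest of the 6 libraries. Leaving out ctrl replicate 1 left 2 calls and a median of -0.02, leaving out ctrl replicate 2 gave 40, and leaving out SA1Q+gRNA replicate 1 gave 35. Without both libraries that stood apart 3 rose and 11 fell, and the list median was -0.06. These genes have many near-identical pseudogenes, so their counts are uncertain. Of 39 initiation and elongation factors 2 rose and 4 fell (15.4% called), 21 were above 0 and the median was 0.02. EIF4B, which aids the helicase that unwinds mRNA leaders, stood at 563 and 557 CPM in ctrl and at 396, 394, 371 and 390 CPM in the line (log2 -0.53, SE 0.06, adjusted p = 0.00014), below the range of ctrl by a wide margin. The eIF3 subunits EIF3L (-0.44) and EIF3F (-0.60) and the elongation factor subunit EEF1G (-0.42) fell too; EIF3F and EEF1G were not called without ctrl replicate 1 (adjusted p = 0.056 and 0.064). EIF5, the GTPase-activating protein of the scanning ribosome, rose from 340 and 295 CPM to 428, 423, 394 and 433 CPM (log2 0.40, adjusted p = 0.012), though not without ctrl replicate 2 (adjusted p = 0.101). The translation factor list had 11 called without SA1Q+gRNA replicate 1.

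Host genes of small nucleolar RNAs, whose spliced transcripts are mostly degraded by nonsense-mediated decay, were counted as a list of 19. Of these 0 rose and 3 fell (15.8%, against 3.34% of all genes called), with a median of -0.15. SNHG5 stood at 175 and 143 CPM in ctrl and at 99.0, 82.2, 89.0 and 82.5 CPM in the line (log2 -0.85, SE 0.09, adjusted p = 0.00014). GAS5 (-0.55) and EPB41L4A-AS1 (-0.51) were not called without ctrl replicate 1 (adjusted p = 0.16 and 0.222), which left 1 called gene. Without SA1Q+gRNA replicate 1 the list had 5.

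Ribosomal protein, translation factor and some host genes start with a 5′ terminal oligopyrimidine (TOP) tract, through which mTOR sets their translation. The stretches run from 10 bases before to 20 after the RefSeq start (GRCh38.p14), and capitals mark the pyrimidine run that begins with C at the start. Coordinates are EIF4B chr12:53006446-53006475 plus, EIF3F chr11:7987327-7987356 plus, RPL13A chr19:49487598-49487627 plus, RPS9 chr19:54200848-54200877 plus and TPT1 chr13:45341164-45341193 minus.
EIF4B: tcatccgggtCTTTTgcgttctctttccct
EIF3F: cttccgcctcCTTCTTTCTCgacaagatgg
RPL13A: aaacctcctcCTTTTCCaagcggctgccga
RPS9: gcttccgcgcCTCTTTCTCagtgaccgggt
TPT1: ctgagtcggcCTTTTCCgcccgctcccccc
A run of at least 5 was found in 42 of 62 ribosomal protein genes with an entry (67.7%), 9 of 32 translation factors, 5.01% of tested genes, 10.4% of genes called lower and 6.06% of genes called higher. It was found in 3 of the 7 ribosomal protein genes called lower (RPS3, RPS9 and RPL13A) and in 2 of the 3 translation factors called lower with an entry (EIF3F and EIF4B). RPL13A (-0.48) and RPS9 (-0.54) fell, and RPL13A and RPS9 were not called without ctrl replicate 1 (adjusted p = 0.062 and 0.191). TPT1, a growth-related protein whose mRNA is a known TOP transcript and which was named here after its values were seen, stood at 1388 and 1195 CPM in ctrl and at 902, 841, 850 and 839 CPM in the line (log2 -0.59, adjusted p = 0.00014).

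**Figure D3:**
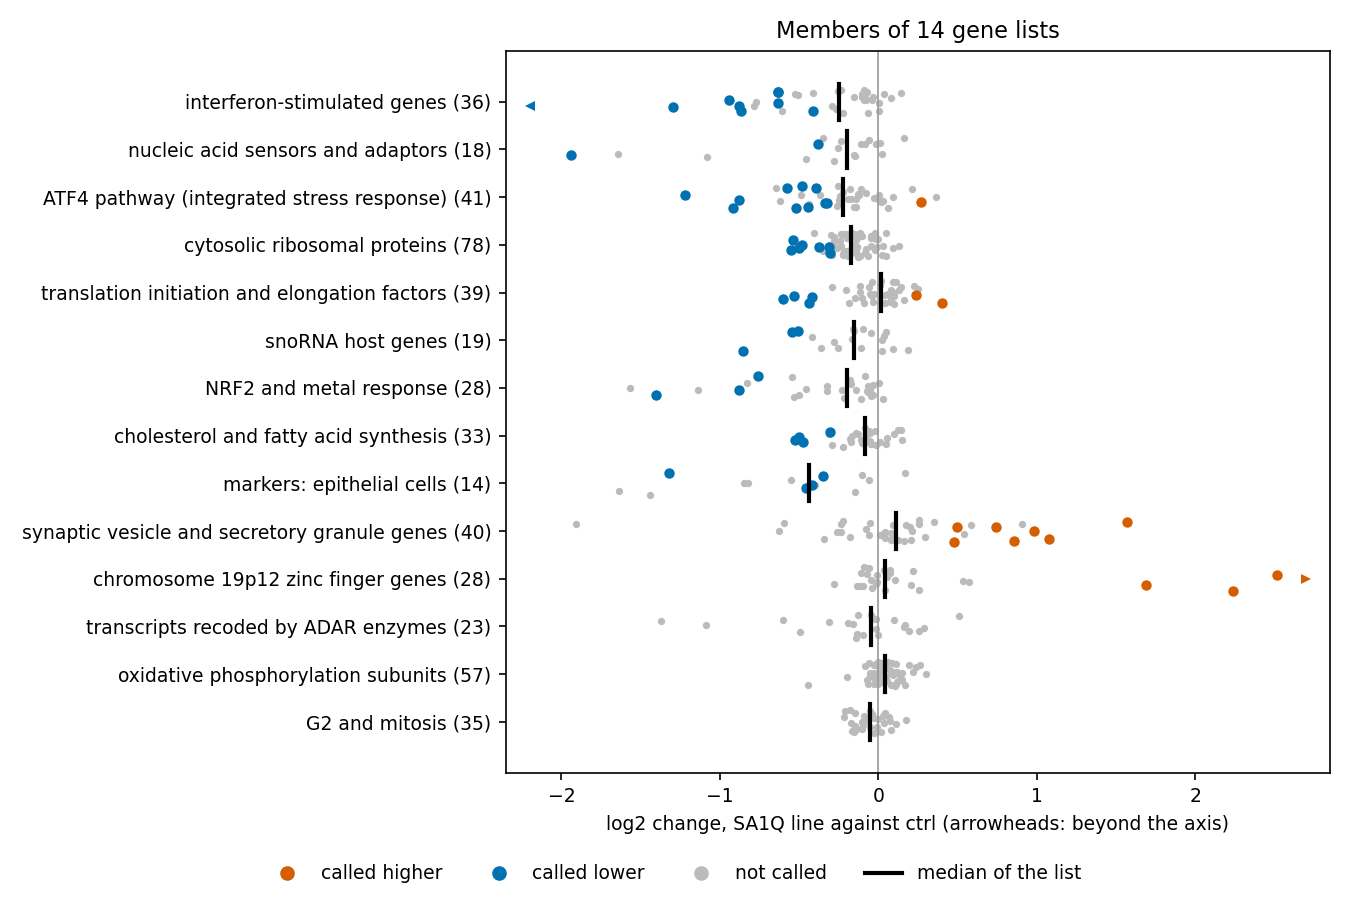
Log2 change of the SA1Q line against ctrl (horizontal axis) for each tested member of 14 gene lists, with the number tested in parentheses, orange for called higher, blue for called lower, grey for not called, a black bar at the list median and arrowheads for values beyond the axis. Interferon-stimulated genes and the ATF4 pathway have medians of -0.24 and -0.22, synaptic and secretory genes 0.11; oxidative phosphorylation and mitosis have 0 called.

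In the remaining lists the called members were few in number, though in several the share was above the 3.34% of all genes tested (1.39% higher and 1.94% lower). The share was 5.1% each for collagens, glycolysis and hypoxia genes and immediate early genes, and 6.2% for axon guidance genes. It was 8% for BMP and TGF-beta genes, 9.1% for neuronal cytoskeleton and lineage genes and 12.1% for cholesterol and fatty acid synthesis genes. It was 17.4% for calcium channels (2 of 23 higher, 2 lower) and 21.4% for neuronal leucine-rich repeat adhesion proteins (2 of 14 higher, 1 lower). For chondroitin sulfate proteoglycans and partners it was 25% (2 of 12 higher, 1 lower). The calcium channel genes that fell, CACNB1 and CACNB3, lost the call without either SA1Q library or SA1Q+gRNA replicate 2. Of 65 axon guidance genes 0 rose and 4 fell (EFNA1, EPHA5, EFNA3 and SEMA3F), of 50 BMP and TGF-beta genes 1 rose (ID4, 0.36) and 3 fell (CHRDL1, BMP2 and INHBE), and of 33 cholesterol and fatty acid synthesis genes 4 fell, led by INSIG1 (-0.53). Of 33 neuronal cytoskeleton and lineage genes 2 rose, the neurofilament protein INA (0.46) and INSM1 (0.47), and 1 fell, ISL1. Of 39 collagens 2 fell, COL1A1 (-0.60) and COL9A3 (-1.13), and of 39 glycolysis and hypoxia genes 2 fell, including NDRG1 (-0.82, not called without ctrl replicate 1, adjusted p = 0.053). Of 39 immediate early genes MYC fell (-0.54) and DUSP4 rose (0.40). BMP2 lost the call without ctrl replicate 1 (adjusted p = 0.129), INHBE without ctrl replicate 2 (adjusted p = 0.122), and EFNA3, SEMA3F, ID4, INSM1 and DUSP4 without at least 2 of the libraries in turn. None of 57 oxidative phosphorylation subunits, 35 genes of G2 and mitosis, 46 clustered protocadherins or 23 transcripts that ADAR enzymes are known to recode was called. These counts of 0 were from all 14 libraries. Of oxidative phosphorylation 15 rose and 1 fell without both libraries that stood apart, 7 rose and 1 fell with the offset, 4 rose and 2 fell without SA1Q+gRNA replicate 1, and 4 rose without ctrl replicate 1, where the median was 0.21 (-0.11 without ctrl replicate 2). Without SA1Q+gRNA replicate 1, 5 mitosis genes fell, 3 recoded transcripts rose, and 2 protocadherins rose and 1 fell; with the offset 6 mitosis genes fell. Without SA1Q+gRNA replicate 1, 35 of the 45 lists had a called count moved by more than 1.5 times; for the ctrl libraries the number was 19 and 21 lists.

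Markers of the parental line and of other cell types were counted in the same way. Of 10 markers of the 293 line 1 rose (INA) and 1 fell (KRT8), and their summed level was 1826 to 1838 CPM in ctrl, 1732 to 1823 CPM in SA1Q and 1832 to 2122 CPM in SA1Q+gRNA. Of 14 epithelial markers 4 fell and 0 rose, with a median of -0.44: KRT19 (-0.46, 95.4 and 97.0 CPM against 69.1, 71.0, 71.4 and 68.8 CPM), KRT8 (-0.42, overlapping KRT18), ESRP2 (-0.35) and the tight junction protein CLDN7 (-1.32, overlapping ELP5). The share called was 28.6%, against 3.34% of all genes. EPCAM, an abundant member, was the only 1 above 0 (0.17, not called). CLDN3, CLDN4, ESRP1, GRHL2, ELF3 and RAB25 were under 1 CPM in all 14 libraries, and the median rests in part on them. The summed level of the 14 was 745 to 776 CPM in ctrl, 605 to 631 CPM in SA1Q and 622 to 661 CPM in SA1Q+gRNA, so the line did not overlap ctrl. KRT8 and KRT18 were the members with the highest counts in this sum. KRT19 stayed called without any single library, while KRT8 did not without ctrl replicate 1 (adjusted p = 0.065), and ESRP2 and CLDN7 did not without ctrl replicate 2 (adjusted p = 0.132 and 0.157), SA1Q replicate 2 (adjusted p = 0.057 and 0.051) or SA1Q+gRNA replicate 2 (adjusted p = 0.055 and 0.077). Of 11 glial markers only PTPRZ1 was called, and their summed level was 79.6 to 86.4 CPM in ctrl, 93.0 to 95.6 CPM in SA1Q and 80.7 to 91.2 CPM in SA1Q+gRNA. Of 7 blood cell markers 1 was called (CD68, lower, not called without ctrl replicate 1, adjusted p = 0.249, or SA1Q+gRNA replicate 2, adjusted p = 0.051), and of 5 endothelial markers 0. The summed level of the blood cell markers was 163 to 164 CPM in ctrl, 133 to 144 CPM in SA1Q and 125 to 134 CPM in SA1Q+gRNA, and these ranges did not overlap ctrl either. Of 9 fibroblast markers 1 fell and 0 rose (11.1%). In a bulk sample, fewer cells of a type and less RNA per cell cannot be told apart, and the part of any change in cell state in the results above was not tested.

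The SA2Q line, which carries the other Q enzyme, showed which differences were not shared by another engineered line. Here 455 of 16418 genes differed (2.77%), 162 higher (0.987%) and 293 lower (1.78%) in the SA1Q line. The count ranged from 139 without SA2Q replicate 2 to 1314 without SA1Q+gRNA replicate 1, and was 155 without SA1Q+gRNA replicate 2, 165 without SA2Q+gRNA replicate 2, 172 without SA2Q replicate 1, 218 without SA1Q replicate 2 and 265 without SA2Q+gRNA replicate 1. The ctrl libraries do not enter this difference, but they enter the shared estimate of spread: without ctrl replicate 1 and SA1Q+gRNA replicate 1 together the count was 2428. Of the 15 largest rises against ctrl 7 were called here too, and of the 15 largest falls 6. CPLX2 stood at 2.95 ± 0.466 CPM in the SA2Q line (SD, n = 4), and the log2 difference of the SA1Q line from it was 1.01 (SE 0.13, adjusted p = 0.00067). IFRD1 stood at 111 ± 5.26 CPM there (difference 0.65, SE 0.06, adjusted p = 3e-05). UNC13A (0.87), SCG3 (0.78), PHF21B (0.64) and NCAN (1.61) were also higher in the SA1Q line than in the SA2Q line. BST2 stood at 1.70 ± 0.201 CPM in the SA2Q line (difference -1.30, adjusted p = 0.0029), and RAB26 (-0.88), NOS3 (-0.91), CLDN7 (-1.23) and KLHL41 (-0.73) were lower in the SA1Q line. CLDN7 and KLHL41 each lost the call without 3 of the libraries in turn (adjusted p = 0.076 and 0.092 at most), SA2Q replicate 1 among them. For CHAC1, at 4.56 ± 0.337 CPM in the SA2Q line, the difference of -0.58 (adjusted p = 0.033) lost the call when any of 7 of the 8 libraries was left out, the exception being SA1Q+gRNA replicate 1.

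By list, 7 of 36 interferon-stimulated genes were lower and 0 higher than in the SA2Q line, and 9 of 41 of the ATF4 pathway lower and 1 higher. Of 78 ribosomal protein genes 9 were lower and 0 higher, and of 40 synaptic and secretory genes 5 were higher and 0 lower. Of all genes 1.78% were lower and 0.987% higher. Of 19 host genes of small nucleolar RNAs 1 was lower and 0 higher, with a median of 0.12, where against ctrl it was -0.15. These list counts were not repeated with libraries left out. Genes called with the same sign against both ctrl and the SA2Q line, and with the smallest p against the latter, included the sulfotransferase SULT1A1 (-0.64 against the SA2Q line), the ephrin ligand EFNA1 (-0.74), the amino acid transporter SLC7A8 (-0.57), HTATIP2 (-0.47), the lysosomal thiol reductase IFI30 (-0.61) and the phosphatase PTPN6 (-0.61). By this choice each of these 6 also fell against ctrl, for example EFNA1 from 10.1 and 8.69 CPM to 5.12, 5.13, 4.45 and 4.83 CPM. Of the unfolded protein response, 5 of 24 were lower than in the SA2Q line, where against ctrl 0 were called. Several large changes against ctrl did not pass the test between the lines, although FLRT2 did (4.48): ISL1 (difference -0.89, adjusted p = 0.42), CHRDL1 (-0.03, adjusted p = 0.98), ZNF738 (0.84, adjusted p = 0.13) and GRIK3 (0.24, adjusted p = 0.36) were not called. Among the named rises PTPRZ1, RYR2, MFAP2, TRIM67 and SEZ6L were not called either. Among the named falls the same held for SLITRK5, EPHA5, PTCHD1, VEGFC, MT1F, TNFAIP2 and SPATA6L.

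**Figure D4:**
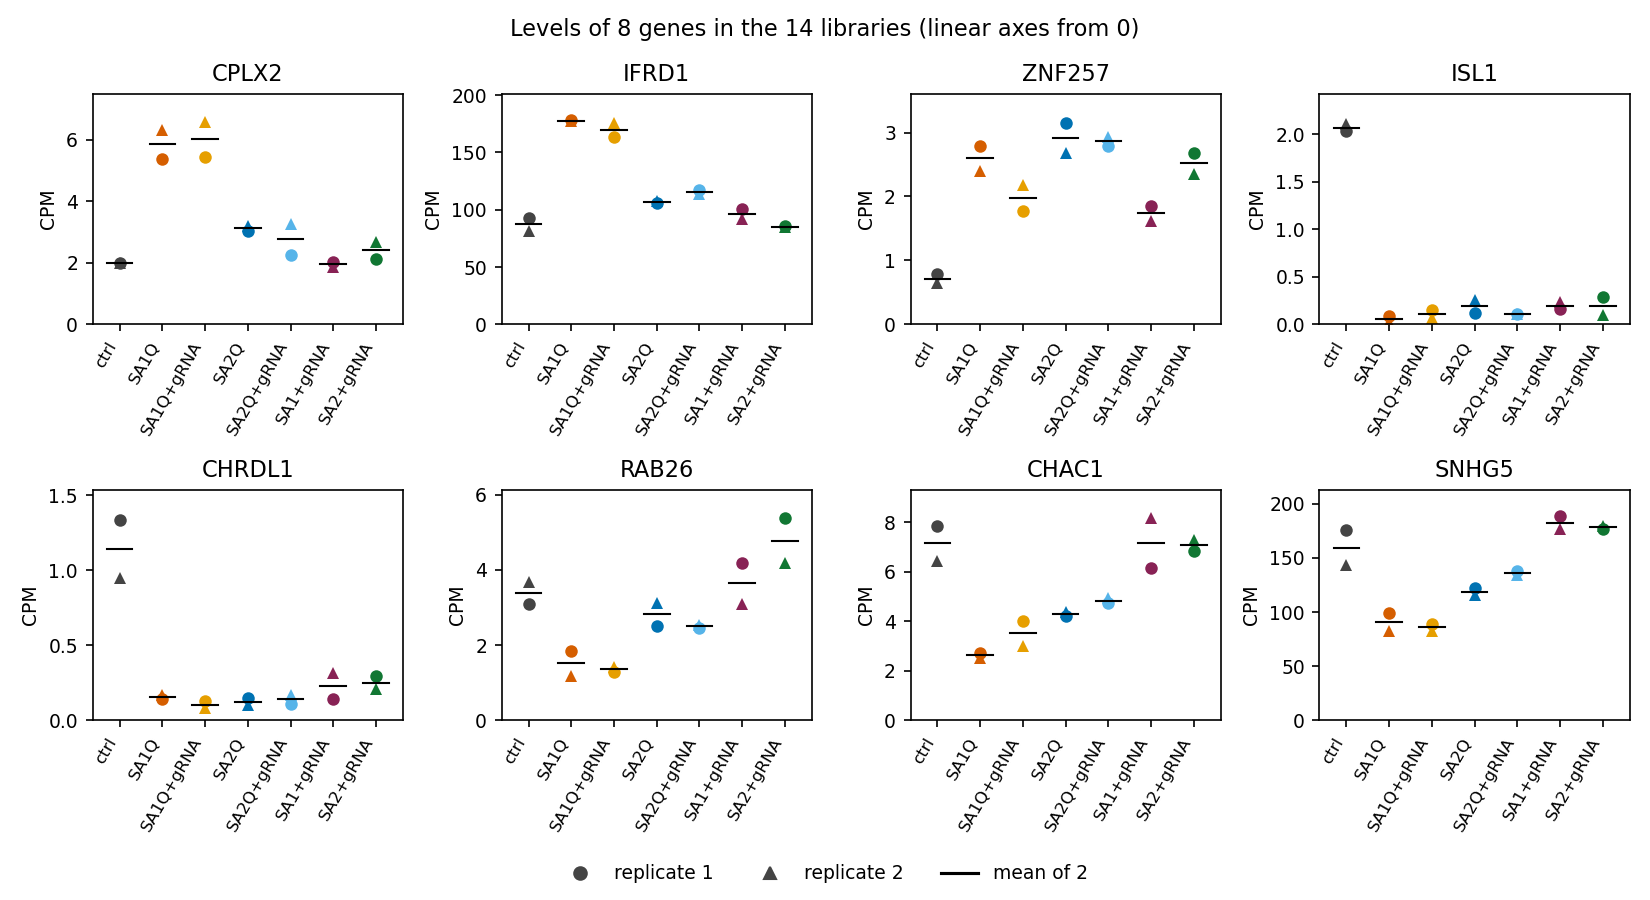
CPM (linear vertical axes from 0) of 8 genes in each of the 14 libraries by group, circles for replicate 1, triangles for replicate 2 and bars for the mean of 2. CPLX2 and IFRD1 are highest in the 4 libraries of the SA1Q line, RAB26, CHAC1 and SNHG5 lowest there, while ISL1 and CHRDL1 are high and ZNF257 low in ctrl alone.

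Addition of the guide RNA made no called difference within the line. SA1Q and SA1Q+gRNA differed in 0 of 16418 genes (0%, edgeR quasi-likelihood test; 0 by DESeq2 and 0 by limma-voom), with 2005 genes at an unadjusted p under 0.05. The count was 2115 without SA1Q+gRNA replicate 2, which leaves only SA1Q+gRNA replicate 1, the library that stood apart. Against ctrl, SA1Q alone differed in 460 genes (2.8%), with 175 higher (1.07%) and 285 lower (1.74%). SA1Q+gRNA differed from the same ctrl libraries in 171 (1.04%), with 69 higher (0.42%) and 102 lower (0.621%). Those counts were 39 and 38 without SA1Q replicate 1 and 2 and 821 without ctrl replicate 2 for SA1Q, and 463 without SA1Q+gRNA replicate 2 for SA1Q+gRNA. Of the 15 largest rises 13 were called in either condition, and of the 15 largest falls 12 in SA1Q and 11 in SA1Q+gRNA. These genes were chosen from the same libraries pooled against the same ctrl, so calls in each condition were likely by choice and are no separate test. PTPRZ1 (log2 difference -0.74, SE 0.23, adjusted p = 0.39) and NCAN (0.79, SE 0.34, adjusted p = 0.39) had the widest differences between the conditions among the 15 rises.

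The SNAP-ADAR1 line, measured with a guide RNA only, carries the same enzyme without the Q change. SA1Q+gRNA and SA1+gRNA differed in 158 of 16418 genes (0.962%), 74 higher (0.451%) and 84 lower (0.512%) in SA1Q+gRNA. ADAR stood at 1514 ± 125 CPM in SA1+gRNA (SD, n = 2) and at 1324 and 1134 CPM in SA1Q+gRNA (log2 -0.30, adjusted p = 0.11). In SA1+gRNA replicate 2 every count was even, a pattern of no other library. The count of called genes was 17 without SA1+gRNA replicate 1, 29 without SA1+gRNA replicate 2, 58 without SA1Q+gRNA replicate 1 and 2082 without SA1Q+gRNA replicate 2. Secretory genes were higher in SA1Q+gRNA, with 8 of 40 called higher and 0 lower: CPLX2 by 1.64 (SE 0.19, adjusted p = 0.00062), UNC13A by 1.32 and SCG3 by 1.29. Of the ATF4 pathway 13 of 41 were lower and 0 higher, among them SLC7A11 (-1.23, adjusted p = 0.00029), CHAC1 (-1.05, adjusted p = 0.011) and ASNS (-0.81), and 11 of 78 ribosomal protein genes were lower. Of the interferon-stimulated genes 1 of 36 was called, IFIT1 (-0.94, adjusted p = 0.04). NCAN went the other way: SA1+gRNA held 7.55 CPM, above both the SA1Q line and ctrl (SA1Q+gRNA minus SA1+gRNA -1.84, adjusted p = 0.0098). Other large differences were NKX6-2 (1.87) and WFIKKN1 (1.71), higher in SA1Q+gRNA, and RAB26 (-1.40), ALDH1L2 (-1.43) and KLHDC8A (-1.39), lower. These 5 and NCAN each lost the call without at least 1 library: all but NCAN without SA1+gRNA replicate 1 (adjusted p = 0.112 to 0.272), and NCAN without SA1+gRNA replicate 2 (adjusted p = 0.118).

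Called genes were also counted by chromosome segment, where 3.34% of all genes tested were called (1.39% higher and 1.94% lower). The share called was 11.9% in the segment of chromosome 8 described here, 6.86% in that of chromosome 16 and 14.9% in that of chromosome 14. On chromosome 8 up to 50 Mb (hg19), a region chosen after its values were seen, 25 of 210 genes tested rose and 0 fell (11.9%), 165 of 210 were above 0 and the median was 0.18. On the rest of chromosome 8, 1 of 342 rose and 8 fell, with a median of 0.01. Relative to the mean of all 14 libraries the median of the region was -0.17 and -0.14 in the ctrl libraries and -0.03 to 0.07 in the other 12, so ctrl was low and the SA1Q line like the rest. Against the SA2Q line 0 of the 210 were higher and 2 lower (0.952%, against 2.77% of all genes called there). Genes that rose there included the decoy receptor TNFRSF10D (0.59), the calcineurin subunit PPP3CC (0.42) and the helicase WRN (0.44). The count of rises was 5 without SA1Q replicate 2, 5 without SA1Q+gRNA replicate 2, 10 without ctrl replicate 2, 13 without ctrl replicate 1, 14 without SA1Q replicate 1 and 70 without SA1Q+gRNA replicate 1, with medians of 0.16 to 0.21. On chromosome 16 up to 40 Mb, also chosen after its values were seen, 24 of 423 rose and 5 fell (median 0.11), against 0 and 9 of 323 beyond it (median -0.07). The 24 rises were 9 without SA1Q replicate 2, 11 without SA1Q+gRNA replicate 2, and 13 or 16 with ctrl replicate 1 or 2 left out. They were 53 without SA1Q+gRNA replicate 1, where the median was 0.05. By library the groups overlapped: SA1Q replicate 1 was at -0.08, between the ctrl libraries (-0.05 and -0.12), and the highest of all 14 was SA1Q+gRNA replicate 1 at 0.17. On chromosome 14 between 20 and 30 Mb 1 of 101 rose and 14 fell (median -0.11), but without ctrl replicate 1 it was 0 and 5 and the median 0.02. DNA copy number was not measured, and its part was not tested.

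**Figure D5:**
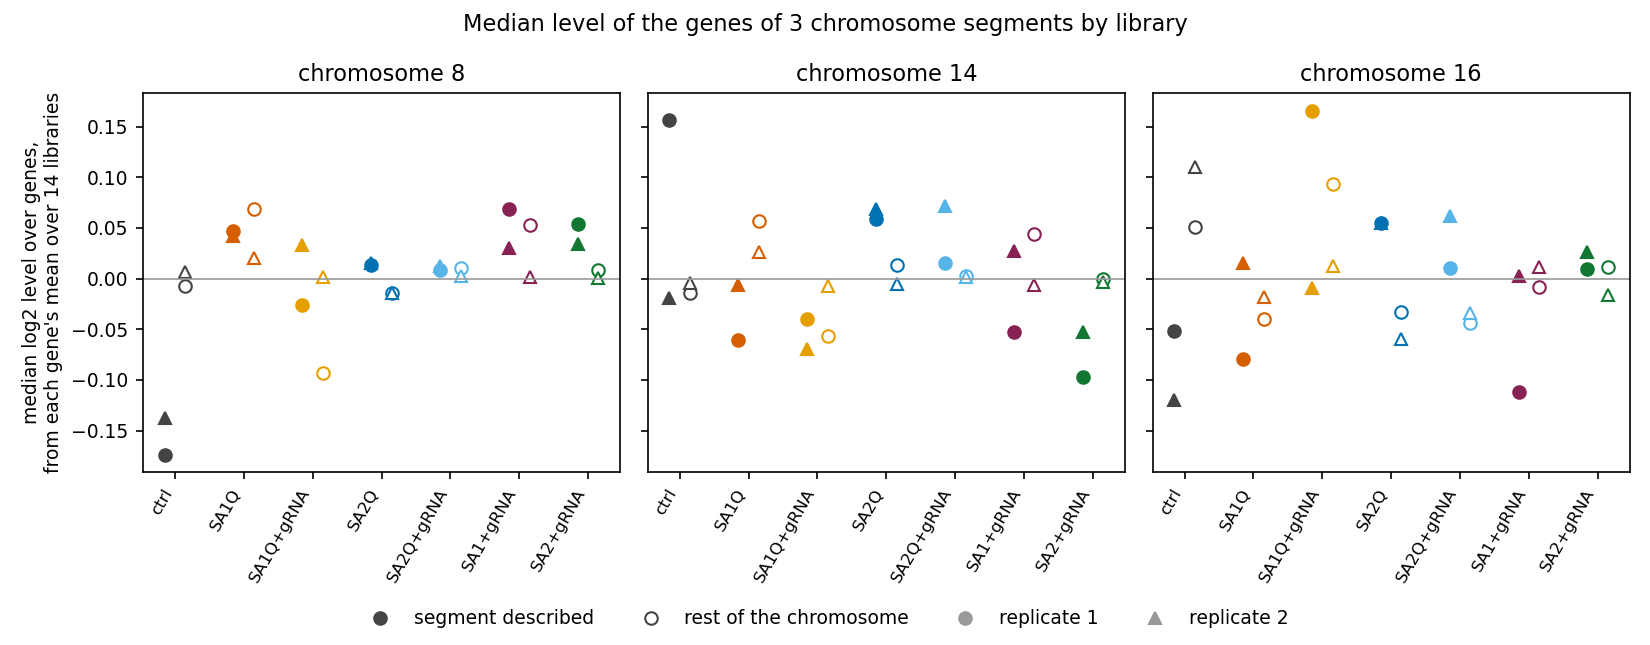
Median log2 level over the genes of a chromosome segment, relative to each gene's mean over 14 libraries (vertical axis), by group for chromosome 8 (up to 50 Mb), 14 (20 to 30 Mb) and 16 (up to 40 Mb); filled symbols are the segment, open symbols the rest of the chromosome, circles replicate 1 and triangles replicate 2. On chromosome 8 both ctrl libraries lie at -0.17 and -0.14, below the other 12; on chromosome 14 only ctrl replicate 1 stands high, at 0.16.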

How the data were processed

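Poly(A)+ RNA of 14 libraries, 2 for each of 7 groups, was sequenced. Trim Galore, STAR 2.4.2a and hg19 are named in the submitters' processing notes; no source used here gives the counting tool or its use of strand. Per the file headers, each of the 14 deposited files holds fragment counts per RefSeq transcript, a signal column of counts scaled to the library total (FPM) and FPKM, and no replicates were pooled by the authors. The counts are raw; the deposited FPKM values are FPM divided by transcript length in kb. Only the counts were tested.

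Of 45595 accessions, 44381 were named through RefSeq (GRCh38.p14) and 565 through GENCODE, 98.6% in all. Entries without a name (887, 0.81% of counts) and named entries under 200 nt (2309) were left out. A fragment can be counted for several transcripts of 1 gene, and each of 22410 genes was therefore represented by its transcript of highest mean level. Coordinates of genes are hg19 as in the files; sequences are from the RefSeq table.

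The test was that of edgeR 4.0.16 under R 4.3.3 (TMM, filterByExpr with a minimum count of 10, quasi-likelihood test), with Benjamini-Hochberg adjustment over 16418 genes and a threshold of 0.05. All 14 libraries entered each fit. The SA1Q line against ctrl and against the SA2Q line came from a fit of 5 levels (9 residual degrees of freedom, biological coefficient of variation 8.91%), and the other 4 comparisons from a fit of 7 groups (7 residual degrees of freedom, 8.67%). DESeq2 1.42.0 and limma-voom 3.58.1 were alternatives. The other alternatives were another scaling, other filters on low counts, the replicate number as a block, an offset for length and GC (natural splines with 5 degrees of freedom), the longest transcript, only the 6 libraries compared, the mean of the 7-group fit, SA1+gRNA replicate 2 halved, and each library left out. Leaving out the 2 libraries that stood apart, for the lists and for the chromosome segments, was chosen after seeing the data. The test of the SA1Q line against ctrl was run on simulated data, and the other comparisons were not simulated. It recovered 22.4% of genes changed 1.3-fold, 66% at 1.5-fold, 83.3% at 2-fold and 94% at 4-fold, and 5 of 136 calls were false. The simulated libraries held no length or GC trends and none that stood apart. The check therefore says nothing on how the real counts depend on single libraries. The p-values measure the spread between cultures of 1 line per genotype.

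Named genes were the 15 that rose most and the 15 that fell most among called genes that did not overlap between groups and reached a mean of 1 CPM in 1 of them, leaving out clone names; the 6 each way with the smallest p against the SA2Q line that were called with the same sign against ctrl; the 5 each way with the largest change in SA1Q+gRNA against SA1Q and against SA1+gRNA; up to 4 called members of each of 45 lists (39 of function and 6 of cell type markers); and ADAR, ADARB1, MGMT, ACTB, GAPDH and GUSB. Other genes were named to complete a list. The members and lists were chosen with earlier results of these data known. Sites were searched in 300 bases around each RefSeq start, for 12870 tested genes with an entry.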

Additional observations from a re-analysis of the deposited data

Results flagged for a closer look

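In 38 genes the 4 libraries of the SA1Q line were examined for a single library far from the other 3, and 2 were found, both in SA1Q+gRNA replicate 1: NCAN at 3.04 CPM, the highest, and SLITRK5 at 0.0257 CPM, the lowest. Chance gives such a library in about 1 in 20 groups. SA1Q+gRNA replicate 1 is 1 of the 2 libraries that stood apart on the first principal component; the part of this in either value was not tested.

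For 21 of the 38 genes the change against ctrl differed between the SA1Q line and the SA2Q line (edgeR quasi-likelihood test of the difference, adjusted p under 0.05). Of all genes tested 2.77% were called in this comparison. The 38 include the genes named for the smallest p in this same test, such as SULT1A1, EFNA1, SLC7A8, HTATIP2, IFI30 and PTPN6. Their calls are by choice, and the count of 21 is not a separate result. The level of ctrl cancels from the difference, though its libraries enter the estimate of spread. Higher in the SA1Q line were ADAR by 1.89, FLRT2 by 4.48, NCAN by 1.61, CPLX2 by 1.01, UNC13A by 0.87, SCG3 by 0.78, IFRD1 by 0.65, PHF21B by 0.64 and EIF5 by 0.50 on the log2 scale. Lower in the SA1Q line, as log2 differences, were BST2 (-1.30), CLDN7 (-1.23), NOS3 (-0.91), RAB26 (-0.88), EFNA1 (-0.74), KLHL41 (-0.73), SULT1A1 (-0.64), PTPN6 (-0.61), IFI30 (-0.61), CHAC1 (-0.58), SLC7A8 (-0.57) and HTATIP2 (-0.47).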

How the results depend on the processing

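No called gene named in the text changed direction. The balance of higher and lower calls did. With the length and GC offset it became 899 higher and 733 lower for the SA1Q line against ctrl, 881 and 752 against the SA2Q line, 462 and 366 for SA1Q against ctrl, and 522 and 452 for SA1Q+gRNA against ctrl. SA1Q+gRNA against ctrl was also 241 and 222 without SA1Q+gRNA replicate 2 and 116 and 108 without ctrl replicate 1, and SA1Q+gRNA against SA1+gRNA was 344 and 242 with DESeq2, 225 and 156 without a filter, and 1225 and 857 without SA1Q+gRNA replicate 2. Counts of called genes moved by more than 1.5 times as follows, and the cause was not tested. The SA1Q line against ctrl (548) gave 1053 with DESeq2, 1632 with the length and GC offset, 1411 without ctrl replicate 1 and SA1Q+gRNA replicate 1 together, 39 with only the 6 libraries compared and 269 to 2042 with 1 library left out. Against the SA2Q line (455) the values were 881 with DESeq2, 1633 with the offset, 2428 without both libraries and 139 to 1314 with 1 left out. SA1Q against ctrl (460) gave 1064 with DESeq2, 304 with the replicate block, 828 with the offset, 1218 without both libraries and 38 to 821 with 1 left out. SA1Q+gRNA against ctrl (171) gave 478 with DESeq2, 271 without a filter, 974 with the offset and 149 to 463 with 1 left out. SA1Q+gRNA against SA1Q (0) gave 1 without a filter and 0 to 2115 with 1 left out. SA1Q+gRNA against SA1+gRNA (158) gave 586 with DESeq2, 381 without a filter, 94 with the replicate block, 666 with the offset and 17 to 2082 with 1 left out. With the replicate number as a block the SA1Q line against ctrl gave 454. Same-numbered libraries of ctrl and SA1Q+gRNA deviated together (r = 0.444), and replicate 1 of both stood apart on the first principal component. Between the other pairs of groups they did not (r of -0.144 to 0.116). Whether ctrl and SA1Q+gRNA share a technical difference by replicate number was not tested.

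Of the 30 genes named for the SA1Q line against ctrl, 17 stayed called under every alternative in which they were tested. CHRDL1, 1 of the 17, was removed by the filter at 1 CPM, which kept 29 of the 30. With only the 6 libraries compared 13 were not called. Leaving out ctrl replicate 1 lost 6, ctrl replicate 2 lost 4, and SA1Q replicate 2 or SA1Q+gRNA replicate 2 lost 2 each. The level of ctrl rests on 2 libraries, and ctrl replicate 1 is 1 of those that stood apart. Genes under about 1 CPM rest on few counts in a library.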
